A study of Mus musculus with 3 samples.

Results

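The heat-shock protein chaperones described here were 9 genes chosen by name out of 31053 features, 5 of them grouped as inducible (Hspa1a, Hspa1b, Dnajb1, Hsph1 and Hsp90aa1) and 4 as constitutive (Hspa8, Hsp90ab1, Hspd1 and Hspe1). All 9 were present in the 3 count matrices. They were read in the 9749 of 10973 barcodes that had at least 500 detected genes and at most 15% mitochondrial unique molecular identifiers (UMIs, the tags that mark single captured transcripts). The cells were tumour-associated macrophages from mammary adenocarcinomas of 3 individual MMTV-PyMT mice, strain FVB/N-Tg(MMTVPyVT)634Mul/J, in which the mouse mammary tumour virus promoter drives the polyoma middle T oncogene. Every mouse gave 1 tumour of 750 mm3. Sorting had kept cells positive for CD45, CD11b and F4/80 and negative for Ly6G, after a digestion with collagenase I and DNase I for 60 minutes at 37 °C that all 3 samples shared. There was no treated or control arm, so the comparisons ran between classes of cells within the mice. As all 3 samples were digested alike, the part of the digestion in the transcript levels given here was not tested.

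Chaperones bind unfolded protein and help it to fold, stay soluble or be handed on for degradation. HSP70 proteins work with J-domain partners that start their ATP cycle and with exchange factors that end it, HSP90 proteins complete the folding of kinases and steroid receptors, and the HSP60 barrel with its HSP10 lid folds proteins inside mitochondria. Some of these genes are transcribed at all times, while others are switched on by heat shock factor HSF1 when unfolded protein accumulates, as after heat or exposure to oxidants.

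HSF1 binds heat shock elements, repeats of the unit GAA in alternating orientation. Promoter sequences were therefore read for the members that the RefSeq promoter table (build GRCm38.p6) held, over the 250 bases before each start, and searched for a pair of units (GAANNTTC or TTCNNGAA, each its own reverse complement) and for 3 units (GAANNTTCNNGAA or its reverse complement TTCNNGAANNTTC). The sequences below carry the matches, and the capitals mark them. Hspa1a lies at chr17:34972157-34972406 and Hspa1b at chr17:34959239-34959488, both on the minus strand. The stretch between the divergent starts of Hspe1 and Hspd1 is at chr1:55087933-55088147 and is given on the plus strand, along which Hspe1 is read. Hsph1 is at chr5:149636337-149636586 on the minus strand.
Hspa1a: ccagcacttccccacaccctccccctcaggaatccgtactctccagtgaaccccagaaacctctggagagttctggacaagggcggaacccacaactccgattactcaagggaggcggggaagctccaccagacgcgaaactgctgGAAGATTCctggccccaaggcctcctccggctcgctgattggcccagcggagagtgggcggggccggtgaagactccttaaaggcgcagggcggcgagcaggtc
Hspa1b: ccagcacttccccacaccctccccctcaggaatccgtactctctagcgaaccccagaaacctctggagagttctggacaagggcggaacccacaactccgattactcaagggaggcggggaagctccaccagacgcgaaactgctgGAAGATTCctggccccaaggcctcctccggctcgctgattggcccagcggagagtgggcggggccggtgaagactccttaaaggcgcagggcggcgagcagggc
Hspe1 and Hspd1: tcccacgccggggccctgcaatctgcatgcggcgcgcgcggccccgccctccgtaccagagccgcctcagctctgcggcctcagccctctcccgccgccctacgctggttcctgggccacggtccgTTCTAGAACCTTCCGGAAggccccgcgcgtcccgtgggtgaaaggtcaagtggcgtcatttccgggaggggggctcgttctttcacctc
Hsph1: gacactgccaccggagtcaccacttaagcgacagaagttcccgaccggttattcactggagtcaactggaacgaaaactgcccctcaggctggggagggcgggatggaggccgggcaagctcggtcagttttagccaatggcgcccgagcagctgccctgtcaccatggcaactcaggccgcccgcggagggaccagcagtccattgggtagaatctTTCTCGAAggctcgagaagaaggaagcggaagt

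The windows of Hspa1a and Hspa1b, which encode near-identical stress HSP70 proteins, were the same at 247 of 250 positions (98.8%), and each held 1 pair of units that began 104 bases before the start. Between Hspe1 and Hspd1, 215 bases apart, lay 2 overlapping matches to the 3-unit motif within a run of 3 unit pairs. The second RefSeq start of Hspd1 had no match in its 250 bases. Hsph1 had 1 pair that began 33 bases before the start shown, and Dnajb1 had none in either of its windows. For scale, GAANNTTC occurred in 6.69% and TTCNNGAA in 7.17% of all 32851 windows of this length, and the 3-unit motif in 0.466%. Hspa8, Hsp90aa1 and Hsp90ab1 had no entry in the table.

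The libraries of mice 1, 2 and 3 held 12454677, 41097369 and 86178419 UMIs. Cells that passed the filters numbered 663, 2108 and 6978, at medians of 15014, 13600 and 9318.5 UMIs, and barcodes above the mitochondrial limit made up 36.03%, 12.1% and 4.13% of the libraries. The libraries of mice 2 and 3 shared 8 cell barcodes and the other pairs shared 0. Between 6 and 10 of 10 macrophage lineage genes had a UMI in at least 50% of the cells of every macrophage class. In all, 17 clusters were found without the use of the chaperones, and 1 of them, cluster 15, was tumour epithelium-like. Tests covered the 13 macrophage clusters with at least 10 cells in each mouse.

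Among the inducible members, Hsp90aa1, the stress-responsive cytosolic HSP90, had the highest level, with 544, 795 and 724 CPM (counts scaled to 1000000 UMIs) in mice 1, 2 and 3. Hspa1a had 518, 377 and 564 CPM, and Hspa1b had 420, 250 and 227 CPM. Mouse 1 was the lowest of the 3 for Hsp90aa1 and the highest for Hspa1b. Dnajb1, the J-domain partner that delivers clients to HSP70, had 69.0, 88.1 and 86.1 CPM. Hsph1, the HSP110 protein that serves HSP70 as a nucleotide exchange factor, had 45.7, 68.5 and 53.9 CPM. Both partners were therefore far below the HSP70 genes they work with, as counted at 3' ends, where a level does not scale with transcript length.

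The constitutive members were led by Hspa8, the constant HSP70 of the cytosol, with 2603, 2244 and 1792 CPM. Hsp90ab1, the constant HSP90, had 1203, 1622 and 1449 CPM. The mitochondrial pair was lower, with 302, 297 and 354 CPM for the lid gene Hspe1 and 151, 202 and 181 CPM for the barrel gene Hspd1. Hspe1 was above Hspd1 in all 3 mice, although their starts share the promoter stretch shown above. Summed, the inducible members had 1597, 1579 and 1655 CPM (1610 ± 39.9, SD, n = 3 mice) and the constitutive members 4258, 4364 and 3775 CPM (4132 ± 314). Inducible transcripts were 27.3, 26.6 and 30.5% of all chaperone UMIs. The 9 genes together gave 0.585, 0.594 and 0.543% of all UMIs of the kept cells.

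**Figure D1:**
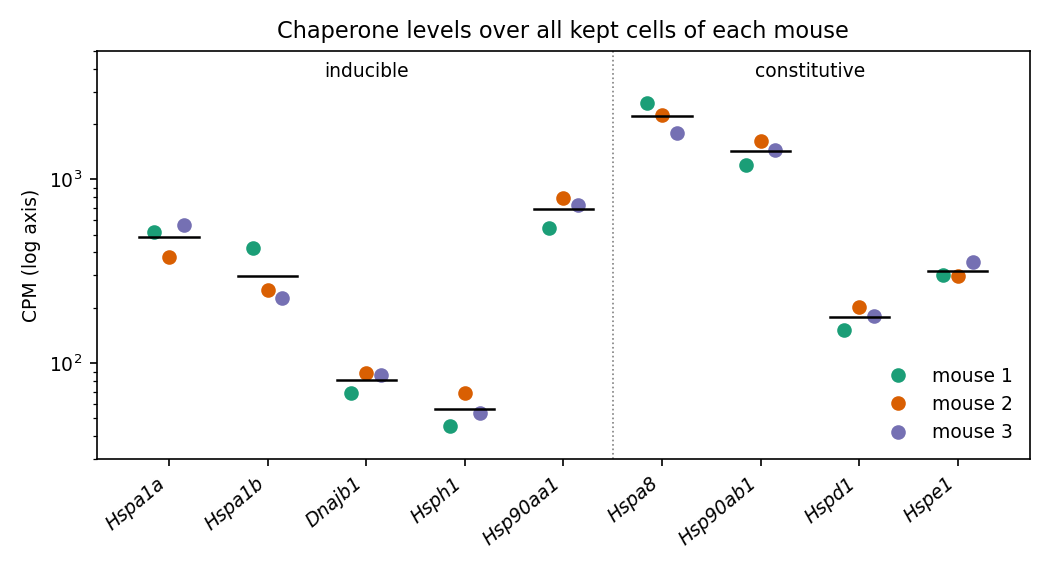
Level of each chaperone (CPM, log axis) over all kept cells of mice 1, 2 and 3, with inducible genes left of the dotted line and constitutive genes right of it. Points are mice and bars their mean; Hspa8 leads with a mean of 2213 CPM and Hsph1 is lowest with 56.0 CPM.

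The 3' ends of most members could be told from other genes. Within the last 500 bases of the transcripts, no stretch of 90 bases of Hspa1a was found in Hspa1b, or the other way round, or in any other gene. For Hspa8, 79.8% of such stretches also occurred in other genes, most of them in Gm15459, and for Hspe1 36.0% occurred in AC117239.2. Reads of these pairs may have been dropped or split, so the levels of Hspa8 and Hspe1 are uncertain. The other 7 members shared no stretch. In build GRCm38 (mm10), Hspa1a lies on chromosome 17 from 34969190 to 34972156 and Hspa1b from 34956436 to 34959238, both on the minus strand, and Hspa8 on chromosome 9 from 40800984 to 40810087 on the plus strand.

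Inducible and constitutive transcripts were spread over cells in different ways. With each cell thinned to 2000 UMIs, which left out 46, 108 and 265 shallower cells of mice 1, 2 and 3, the 10% of cells richest in a gene held 78.4% ± 0.741 of the UMIs of Hspa1a and 82.2% ± 1.52 of those of Hspa1b (mean ± SD, n = 3 mice). Counting error at the same mean level would give 29.6% and 37.8%. For Hsp90aa1 the share was 48.8% ± 4.60, with 27.5% from counting error. The constitutive genes came closer to an even spread. Hspa8 had 26.5% ± 0.924, with 19.1% from counting error, and Hsp90ab1 had 26.6% ± 1.43, with 21.9%. Hspe1, whose mean level of 317 CPM lay under that of Hspa1a (486 CPM), had 43.8% ± 2.94 of its UMIs in its richest 10% of cells, with 37.5% from counting error. Dnajb1 and Hsph1 were too scarce at this depth to be read in this way, since counting error would put 68.3% and 93.9% of their UMIs into 10% of the cells. The highest count of inducible UMIs in a single cell, as sequenced, was 1421.

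**Figure D2:**
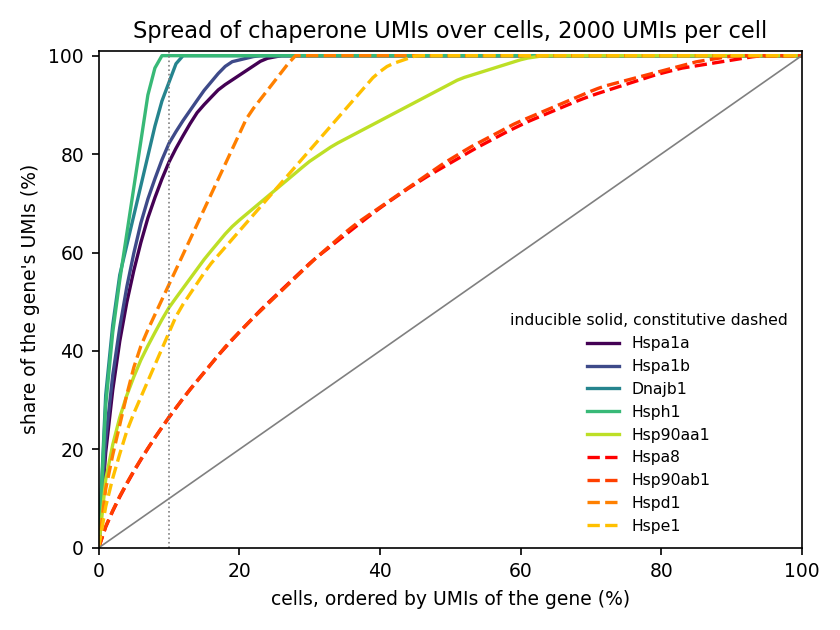
Share of each chaperone's UMIs (%) held by a given share of cells (%), ordered from the cells with the most UMIs of the gene, each cell thinned to 2000 UMIs and the curve averaged over 3 mice. Solid lines are inducible and dashed lines constitutive genes, the grey diagonal is an even spread and the dotted line marks 10% of cells, where Hspa1a is at 78.4% and Hspa8 at 26.5%.

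As sequenced, 40.6, 41.8 and 42.5% of the cells of mice 1, 2 and 3 had a UMI of Hspa1a. After thinning, 23.3, 23.6 and 25.9% had one. Hspa8 was found in 94.98, 93.8 and 93.4% of thinned cells. No cell type of the sort is known to lack these genes, so the share that free RNA would give could not be measured. The inducible genes were found together. Among thinned cells with a UMI of Hspa1a, 68.8, 58.1 and 54.2% had Hspa1b, against 8.46, 6.87 and 4.87% of cells without Hspa1a. Hsph1 was found in 20.8, 24.6 and 20.5% of cells with Hspa1a and in 2.96, 4.19 and 3.32% of cells without it. The constitutive Hspe1 was found in 48.6, 44.7 and 53.7% of cells with Hspa1a and in 39.1, 37.6 and 42.1% of cells without it. Within classes of cells, Pearson's r between the thinned log counts of Hspa1a and Hspa1b was 0.76, 0.70 and 0.71, between Hspa1a and Hsp90aa1 0.40, 0.42 and 0.44, and between Hspa1a and Dnajb1 0.31, 0.37 and 0.35. Between Hspa1a and Hsph1 it was 0.30, 0.42 and 0.38. Among the constitutive members, r with Hspa1a was 0.21, 0.30 and 0.26 for Hspa8 and 0.20, 0.21 and 0.21 for Hsp90ab1. It was 0.16, 0.19 and 0.17 for Hspd1 and 0.18, 0.17 and 0.21 for Hspe1. Counting error differs with the level of a gene, so these values do not rank the members. These are descriptions over cells that share a library and are not tests.

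The range over classes of macrophages was wide for the HSP70 pair and narrow for the constitutive members. Over the 13 classes, the highest mean exceeded the lowest 25.04 times for Hspa1a, 30.3 times for Hspa1b, 9.17 times for Hsph1, 6.41 times for Dnajb1 and 2.82 times for Hsp90aa1. The same ratio was 2.10 for Hspa8, 2.04 for Hsp90ab1, 2.27 for Hspd1 and 3.36 for Hspe1. Each class was compared with the unweighted mean of the other classes by edgeR's quasi-likelihood test, with the mouse as a block and Benjamini-Hochberg adjustment at 0.05 over the 8215 fitted genes not used to cluster. Of the 117 pairs of chaperone and class, 31 were called higher and 17 lower, or 41.0%, where 20.3% of all 106795 pairs of gene and class were called, 13.8% higher and 6.5% lower. Set against the sum of all other macrophage cells in place of the mean of classes, 20 pairs were higher and 36 lower. Called pairs were 17 higher and 12 lower of 65 for inducible members and 14 higher and 5 lower of 52 for constitutive members. The median size of the log2 fold change was 0.78 over inducible pairs, 0.25 over constitutive pairs and 0.26 over all genes. The classes came from the same cells that were then tested, so these p-values do not measure a difference apart from the clustering.

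**Figure D3:**
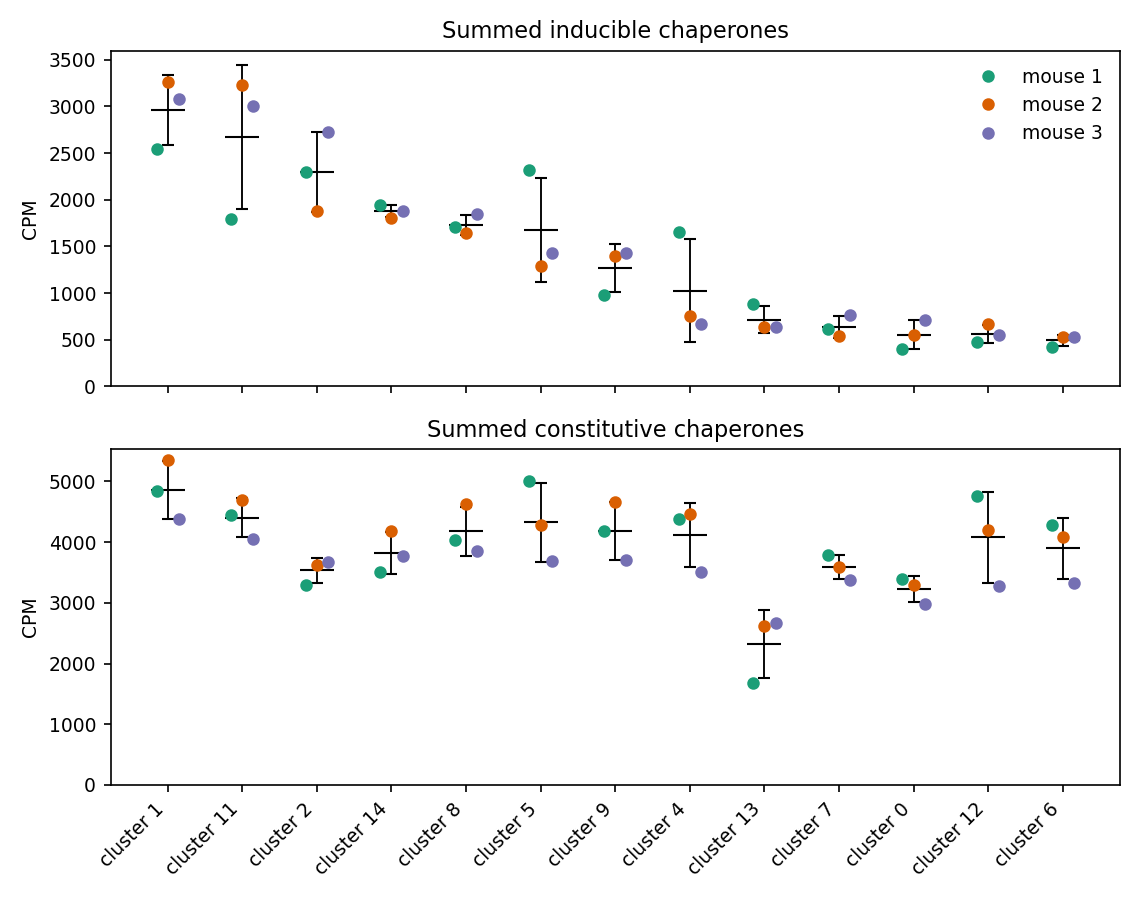
Summed inducible (top) and constitutive (bottom) chaperones in each of 13 macrophage classes (CPM), ordered by the mean level of Hspa1a. Coloured points are mice 1 to 3, bars the mean and whiskers the SD; the inducible sum ranges from 2962 CPM in cluster 1 to 495 CPM in cluster 6, while the constitutive sum lies between 2320 CPM in cluster 13 and 4856 CPM in cluster 1.

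Cluster 1, led by the stress cytokine gene Gdf15, the chemokine genes Ccl3 and Ccl4 and the kinase gene Plk3, held 1193 cells and had the highest inducible level. Hspa1a had 878, 1144 and 1255 CPM there in mice 1, 2 and 3, and Hspa1b 736, 591 and 458 CPM. The mean over the other classes was 381 CPM for Hspa1a and 222 CPM for Hspa1b. Such means of CPM are arithmetic here and below, whereas the log2 fold changes average the other classes on the log scale. Classes with very low levels therefore lower the reference of the fold change more than the mean CPM. All 9 chaperones were called higher, where 18.1% of all genes were called in either direction, 15% higher and 3.1% lower. The log2 fold change was 2.31 ± 0.25 (SE, adjusted p = 5.36e-07) for Hspa1a, 2.28 ± 0.33 (3.49e-05) for Hspa1b, 1.75 ± 0.22 (2.90e-06) for Hsph1 and 1.56 ± 0.14 (1.11e-09) for Dnajb1. Hsp90aa1 rose by 0.91. Of the constitutive genes, Hspe1 was higher by 0.74, Hspd1 by 0.61 and Hsp90ab1 and Hspa8 by 0.42 each, where the median of all genes was 0.15.

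Some of the other genes of the heat-shock response were also higher in cluster 1. Of 16 tested genes of a list of 20 (Hspb8, Cryab, Hspa1l and Serpinh1 were too low to test), 9 were called higher and 0 lower by edgeR, with 12 and 0 at an unadjusted p under 0.05 and 7 and 0 by DESeq2. Of 19 immediate-early genes, transcription factors and regulators that respond within minutes to a stimulus, 12 were called higher and 0 lower by edgeR (12 and 1 at an unadjusted p under 0.05, 12 and 1 by DESeq2), led by Atf3 (1.73), Jun (1.45), Egr1 (1.44) and Fos (1.42). The TRiC chaperonin and prefoldin genes, which fold actin and tubulin, had 7 of 13 called higher, against 2 of 13 by DESeq2. Without mouse 2 or mouse 3 the calls of Hspa8 (adjusted p = 0.428 and 0.136), Hsp90ab1 (0.161 and 0.146) and Hspd1 (0.341 and 0.0822) were lost. Against the summed cells of all other classes, Hspa1a was no longer called in cluster 1 (adjusted p = 0.0795).

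Clusters 11 and 14 were LYVE-1 resident-like, named by Lyve1, Cd163 and Cd209f among other markers of macrophages that settle in tissues. The inducible sum was 1792, 3225 and 3000 CPM in cluster 11. It was 1942, 1809 and 1881 CPM in cluster 14, near the 1711, 1639 and 1849 CPM of cluster 8, which took no name. Cluster 11 (471 cells) had 703, 1035 and 1321 CPM of Hspa1a and 509, 715 and 447 CPM of Hspa1b in mice 1, 2 and 3. Mouse 1 had the lowest Hspa1a of the 3, yet all 3 lay above the mean of the other classes, 387 CPM. In cluster 11, 5 members were called higher, where 29.1% of all genes were called, 16.2% higher and 12.8% lower. Hspa1a rose by 2.09 ± 0.26 on the log2 scale (SE, edgeR adjusted p = 6.54e-07), Hspa1b by 2.15 ± 0.35, Dnajb1 by 0.70 ± 0.17, Hsp90aa1 by 0.68 ± 0.14 and Hspa8 by 0.38 ± 0.12. Hsph1 was 0.69 ± 0.29 (adjusted p = 0.0749), and the remaining constitutive members lay between -0.21 and -0.03. Without mouse 2 the call of Hspa8 was lost (adjusted p = 0.0952), and against the summed cells of all other classes neither Hspa1b in cluster 11 (0.0556) nor Hsp90aa1 in cluster 11 (0.0973) was called.

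Cluster 11 also had the highest immediate-early level, 14376 ± 159 CPM summed over 19 genes. Of these, 15 were called higher and 0 lower (15 and 0 at an unadjusted p under 0.05 and by DESeq2), led by Klf4 (2.23), Ier3 (2.06) and Klf2 (1.51). Of the 16 heat-shock response genes, 6 were called higher and 2 lower. Hspb1, the small heat-shock protein HSP27, had 2.58, 60.5 and 47.4 CPM in cluster 11, with a log2 fold change of 2.59 ± 0.42, and mouse 1 stood far below mice 2 and 3. The cytosolic co-chaperones had 0 of 19 called higher and 5 lower by edgeR (1 and 8 at an unadjusted p under 0.05, 0 and 6 by DESeq2), among them the immunophilins Fkbp5 (-1.54) and Ppid (-0.70). Marker sums of other cell types in cluster 11 were 53.7 CPM for 10 tumour epithelium genes, the highest of the 13 classes, against 20286 CPM in cluster 15. They were 70.5 CPM for 8 dendritic cell genes, of which Cd209a gave 67.9 and 3 were at 0. Their part in the chaperone levels was not tested.

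Cluster 14 (595 cells, median 35317 UMIs) was the most deeply read class. Hspa1a had 637, 381 and 637 CPM there, against a mean of 426 CPM in the other classes, and Hspa1b had 480, 321 and 310 CPM, against 241 CPM. On the log2 scale all 3 mice lay above the other classes for both genes. In cluster 14, 4 members were called higher, where 16.4% of all genes were called, 11.7% higher and 4.65% lower: Hspa1b by 1.32 ± 0.36, Hsph1 by 0.93 ± 0.22, Hspa1a by 0.93 ± 0.28 and Dnajb1 by 0.77 ± 0.14. The constitutive members lay between -0.22 and -0.03. Of the 18 chaperones of the endoplasmic reticulum, which fold secreted and membrane proteins, 6 were called lower, among them Pdia6 (-0.54) and Calr (-0.46). Without mouse 2 the calls of Hspa1a (adjusted p = 0.194), Hspa1b (0.156) and Hsph1 (0.220) were lost, and without mouse 3 those of Hspa1a (0.239) and Hspa1b (0.192). Hspa1a in cluster 14 was also not called by DESeq2's Wald test or against the summed cells of all other classes. Neither gene of the HSP70 pair was called there without the block or without the low-depth classes. Over 17 alternatives Hspa1a stayed called in 8, with fold changes from 0.09 to 1.21, and Hspa1b in 11.

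Cluster 2 (741 cells), led by Txnip, the arrestin that binds thioredoxin, and by Sesn1 and Hhex, had high levels of the HSP70 pair and low levels of most immediate-early genes. Hspa1a had 918, 692 and 1200 CPM, against a mean of 394 CPM in the other classes. For Hspa1b the levels were 806, 384 and 483 CPM, against 225 CPM. Every mouse lay above the mean of the other classes for both genes. In cluster 2, 4 members were called higher and 1 lower, where 38.5% of all genes were called, 28.5% higher and 9.99% lower. The log2 fold change was 1.84 ± 0.26 for Hspa1a (edgeR adjusted p = 4.58e-06), 1.96 ± 0.34 for Hspa1b and 0.78 ± 0.15 for Dnajb1. Hspe1 was called at 0.30 ± 0.10, with 2 of 3 mice on that side. Hsp90aa1 was at 0.07 ± 0.15 (adjusted p = 0.746). Hspa8 fell by 0.41 ± 0.12, with 1859, 1613 and 1520 CPM against a mean of 2141 CPM in the other classes. Inducible members made up 39.2% ± 4.53 of chaperone UMIs in cluster 2, the highest share of the 13 classes.

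Of the 19 immediate-early genes, 13 were called lower and 2 higher in cluster 2. The early growth response gene Egr3 fell by 2.71, Ier3 by 1.38, Fosb by 1.32 and the phosphatase gene Dusp1 by 1.27, while Jun rose by 1.35. Jun had 601, 782 and 781 CPM there. Of the 16 heat-shock response genes, 2 were called higher and 3 lower in cluster 2. Over all genes, 28.5% were called higher and 9.99% lower there. Hspb1 was higher by 1.94 ± 0.42, with 17.9, 40.8 and 20.8 CPM. Hsf2, which encodes heat shock factor 2, was higher by 0.61 ± 0.25 (edgeR adjusted p = 0.0474). For Hsf1 itself the smallest adjusted p over the 13 classes was 0.0553, in cluster 13. The 6 B cell genes summed to 231 CPM in cluster 2, the highest of the 13 classes, of which Ighm gave 217 CPM and 3 genes were at 0. Its part in the chaperone levels was not tested. Without mouse 2 the calls of Dnajb1 (adjusted p = 0.0558), Hspa8 (0.222) and Hspe1 (0.354) were lost, and without mouse 3 that of Hspe1 (0.580).

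**Figure D4:**
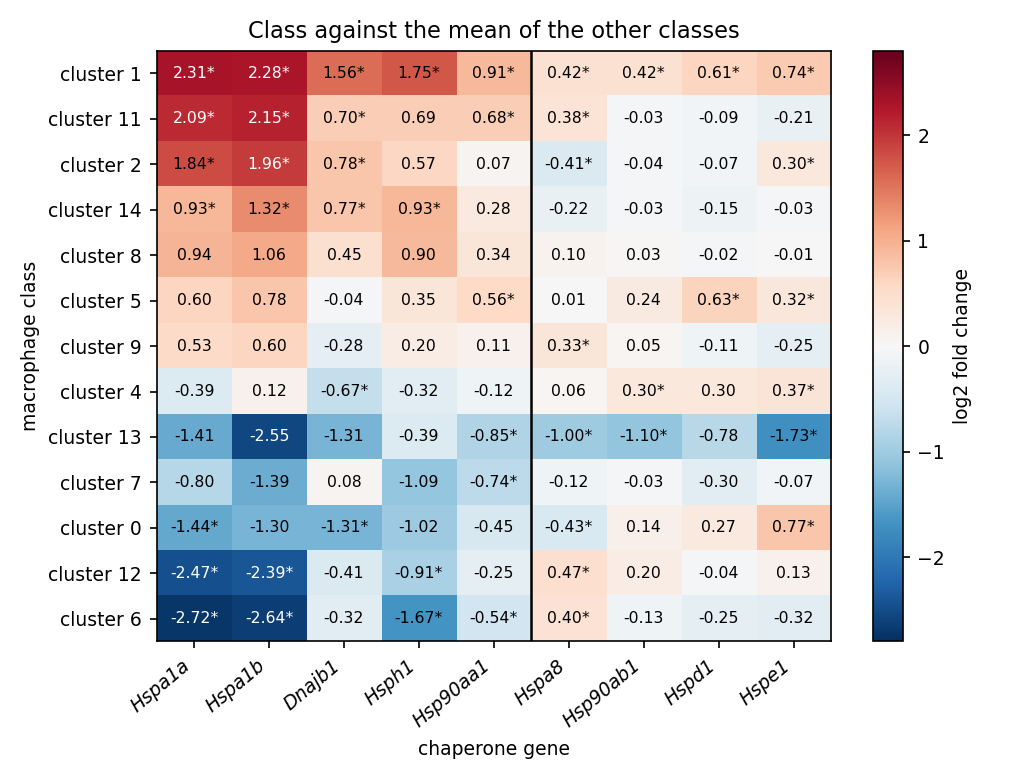
Log2 fold change of each chaperone in each class against the mean of the other classes, from edgeR, with red for higher and blue for lower and a star where the adjusted p is under 0.05. Classes run from the highest to the lowest mean level of Hspa1a, and the black line parts inducible from constitutive genes; the strongest colours lie in the Hspa1a and Hspa1b columns, from 2.31 in cluster 1 to -2.72 in cluster 6.

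Cluster 8 (1041 cells, median 19322 UMIs), led by Apold1, Gdf15 and the efferocytosis receptor gene Mertk, had few genes called in either direction. Hspa1a had 560, 391 and 628 CPM, against a mean of 428 CPM in the other classes, and Hsph1 had 84.0, 71.5 and 66.6 CPM, against 43.7 CPM. By edgeR 0 of 9 chaperones were called in cluster 8, where 0.633% of all genes were called, 0.621% higher and 0.0122% lower. At an unadjusted p under 0.05, the 5 inducible genes were higher and 0 lower, and DESeq2 called 1 higher and 0 lower. Their log2 fold changes were 0.94 ± 0.28 for Hspa1a, 1.06 ± 0.37 for Hspa1b and 0.90 ± 0.22 for Hsph1. Without mouse 1, Hspa1a (adjusted p = 8.73e-05) and Hspa1b (0.00394) were called higher. The 6 erythroid genes summed to 5.55, 503 and 3.29 CPM in cluster 8, so they were high in mouse 2 only, and their part was not tested.

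At the other end, clusters 6 and 12 had little of the HSP70 pair. Cluster 6 (586 cells), led by Rcan1, Rrad and Vcam1 with Il1a and Crem, had 50.9, 22.9 and 57.1 CPM of Hspa1a, against a mean of 468.5 CPM in the other classes. Its Hspa1b was at 15.7, 22.9 and 20.4 CPM, against 269.9 CPM. In cluster 6, 4 members were called lower and 1 higher, where 7.72% of all genes were called, 1.95% lower and 5.77% higher. Hspa1a fell by 2.72 ± 0.47 (edgeR adjusted p = 0.000287), Hspa1b by 2.64 ± 0.66, Hsph1 by 1.67 ± 0.43 and Hsp90aa1 by 0.54 ± 0.17. Hspa8 rose by 0.40 ± 0.12, with 2952, 2610 and 1793 CPM against 2075 CPM. Inducible members were 11.4% ± 2.30 of its chaperone UMIs, the lowest share of the classes.

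Low inducible chaperones did not go with low immediate-early genes in cluster 6. Of 19, 9 were called higher and 2 lower. The nuclear receptor gene Nr4a1 was higher by 0.81, Egr3 by 1.25, Ier3 by 0.96 and the cytokine signalling inhibitor gene Socs3 by 0.80, while Jun fell by 1.498 and Fos by 0.44. Jun had 133, 74.7 and 108 CPM in cluster 6. Of the heat-shock response genes, edgeR called Hspa4l, a member of the HSP110 family, higher by 0.79. Mouse 1 gave 19 cells of cluster 6, and a single cell held 53.8% of their 13 UMIs of Hspa1a. Without mouse 3 the calls of Hspa1a (adjusted p = 0.0700), Hspa1b (0.283), Hsph1 (0.188) and Hsp90aa1 (0.381) were lost, and without mouse 2 those of Hspa1b (0.114), Hsph1 (0.292), Hsp90aa1 (0.201) and Hspa8 (0.279). Without mouse 1 Hspd1 (0.0483) and Hspe1 (0.00663) were called lower.

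Cluster 12 was the largest class, with 1279 cells, and was led by Cd207, Il12b and Procr, with 7 of 12 inflammatory markers and 5 of 8 MHC class II markers raised, and took no name. Hspa1a had 38.1, 43.9 and 56.5 CPM, against a mean of 468 CPM in the other classes, and Hspa1b had 35.1, 22.9 and 22.8 CPM, against 269 CPM. After thinning, 5.33, 7.02 and 6.96% of its cells had a UMI of Hspa1a, compared with 42.2, 45.7 and 42.6% in cluster 1, so the lower level went with fewer cells in which the gene was found. In cluster 12, 3 members were called lower and 1 higher, where 22.5% of all genes were called, 7.08% lower and 15.4% higher. Hspa1a fell by 2.47 ± 0.40 (edgeR adjusted p = 3.97e-05), Hspa1b by 2.39 ± 0.55 and Hsph1 by 0.91 ± 0.30. Dnajb1, at 48.6, 51.1 and 32.7 CPM, was not called (-0.41 ± 0.17, adjusted p = 0.0907).

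Hspa8 was higher in cluster 12, with 3069, 2513 and 1674 CPM against 2078 CPM in the other classes (0.47 ± 0.11, edgeR adjusted p = 0.00179). Mouse 3 was the lowest of the 3, as it was for Hspa8 in 12 of the 13 classes. Some genes of the other chaperone lists were higher as well. Among them were the J-domain genes Dnajb4 (0.77) and Dnajb6 (0.67), the HSP70 to HSP90 adaptor gene Stip1 (0.70) and Hspa5, the HSP70 of the endoplasmic reticulum (0.54). By edgeR, 3 of 16 heat-shock response genes were higher and 0 lower, and 4 of 19 co-chaperones higher and 1 lower. Of 18 chaperones of the endoplasmic reticulum, 5 were higher and 0 lower, and of 11 mitochondrial genes 2 were higher and 1 lower. Over all genes 15.4% were called higher. DESeq2 called 2, 2, 2 and 0 of these lists higher. Of 13 TRiC and prefoldin genes, 9 were called higher (7 by DESeq2). Immediate-early calls were 2 higher and 4 lower, with Klf4 at -2.33, Jun at -1.896 and Fos at -1.10. The call of Hsph1 was lost without mouse 1 (adjusted p = 0.0507), mouse 2 (0.246) or mouse 3 (0.298), that of Hspa8 without mouse 2 (0.104) and that of Hspa1b without mouse 3 (0.118), while Dnajb1 was called lower without mouse 1 (0.0336).

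Clusters 0, 7 and 13 had low inducible levels, read from few UMIs or few cells. Cluster 0 (303 cells, median 2050 UMIs) had 45.3, 75.8 and 136 CPM of Hspa1a, against a mean of 465 CPM in the other classes, and 28.3, 26.2 and 20.4 CPM of Dnajb1, against 75.8 CPM. It had 3 members called lower and 1 higher, where 24.1% of all genes were called, 17.8% higher and 6.29% lower. Hspa1a fell by 1.44 ± 0.50, Dnajb1 by 1.31 ± 0.40 and Hspa8 by 0.43 ± 0.13. Hspe1 went the other way, with 487, 358 and 405 CPM against 287 CPM (0.77 ± 0.12, edgeR adjusted p = 5.41e-07), beside 11 of 13 TRiC and prefoldin genes called higher and 16 of 19 immediate-early genes called lower. Without mouse 2 the calls of Hspa1a (adjusted p = 0.108) and Hspa8 (0.0946) were lost, and without mouse 3 those of Hspa1a (0.126) and Dnajb1 (0.0640), while Hsp90aa1 was called lower without mouse 1 (0.0496) or mouse 3 (0.00687).

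Cluster 7 (168 cells), led by Gm33195, Rccd1 and Ctcflos, had 1 member called, where 4.49% of all genes were called, 2.91% higher and 1.58% lower. Hsp90aa1 had 271, 386 and 411 CPM there, against 639.9 CPM in the other classes (-0.74 ± 0.18, edgeR adjusted p = 0.0156), and without mouse 2 the call was lost (0.0667). Jun was high in cluster 7, at 1249, 955 and 721 CPM, and Hspa1a was not, at 165, 64.4 and 219 CPM. Cluster 13 (116 cells, median 1821 UMIs, median 9.22% mitochondrial UMIs) had 4 chaperones called lower and 5 not called, where 25.1% of all genes were called, 4.35% higher and 20.8% lower. There Hspe1 had 180, 94.8 and 110 CPM, against 311.5 CPM (-1.73 ± 0.22), Hsp90ab1 fell by 1.10 ± 0.14, Hspa8 by 1.00 ± 0.15 and Hsp90aa1 by 0.85 ± 0.23. The median of all genes was -0.58 in cluster 13. Its Hspa1a was 433 CPM in mouse 1 from 24 UMIs, and 39.5 and 91.7 CPM in mice 2 and 3. Without mouse 1 Hspa1a was called lower (-2.30, adjusted p = 0.000184), and without mouse 3 the call of Hsp90aa1 was lost (0.0763) and Dnajb1 (0.00838) and Hspd1 (0.0343) were called lower.

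Cluster 5 (713 cells), cycling-like with Top2a, Birc5 and Cenpf, had 327, 247 and 197 CPM of Hspd1, against a mean of 158 CPM in the other classes, and 949, 806 and 762 CPM of Hsp90aa1, against 599.7 CPM. It had 3 members called higher, where 38% of all genes were called, 29.6% higher and 8.34% lower, so the members' share was not above that of all genes. Hspd1 rose by 0.63 ± 0.15 (edgeR adjusted p = 0.00124), Hsp90aa1 by 0.56 ± 0.14 and Hspe1 by 0.32 ± 0.10. Of 13 TRiC and prefoldin genes, 12 were called higher, of 19 co-chaperones 11, and of 11 further mitochondrial chaperones and proteases 7. A single cell of mouse 1 held 1421 inducible UMIs, 69.0% of those of its 32 cells of cluster 5. Without mouse 1 Hsp90aa1 was no longer called (adjusted p = 0.0762) and Hspa1a was (0.39, 0.0231). Without mouse 2 the calls of Hspd1 (0.0519) and Hspe1 (0.193) were lost, and without mouse 3 that of Hspe1 (0.144).

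Cluster 4 (875 cells) was led in part by Bnip3, Slc16a3, Mif and Pgk1, genes of the response to low oxygen and of glycolysis. Mmp12, Pdpn, Spp1 and Lgals3 were also among its leading genes. It had 5 of 12 hypoxia markers raised and took no name. Hspa1a had 488, 75.2 and 120 CPM and Hspa1b 563, 39.4 and 42.7 CPM, so mouse 1 stood far above mice 2 and 3, and a single cell held 36.3% of its Hspa1a UMIs. The log2 fold change was -0.39 ± 0.34 for Hspa1a (edgeR adjusted p = 0.442) and 0.12 ± 0.44 for Hspa1b (0.882). Without mouse 1 both were called lower, Hspa1a at -1.38 (adjusted p = 1.96e-06) and Hspa1b at -1.54 (0.000687). Cluster 4 had 2 members called higher and 1 lower with all mice, where 25.2% of all genes were called, 21.6% higher and 3.58% lower. Hspe1 had 358, 323 and 347 CPM, against 294 CPM (0.37 ± 0.10), Hsp90ab1 1291, 1778 and 1467 CPM, against 1304 CPM (0.30 ± 0.10), and Dnajb1 47.2, 40.7 and 35.9 CPM, against 74.5 CPM (-0.67 ± 0.18). DESeq2 called Dnajb1 and neither of the others. Of 18 chaperones of the endoplasmic reticulum, 10 were called higher (6 by DESeq2), led by the disulfide isomerase gene P4hb (1.00), and 10 of 19 immediate-early genes were called lower. Without mouse 2 or mouse 3 none of the 3 was called, with adjusted p of 0.255 and 0.138 for Hspe1, 0.466 and 0.360 for Hsp90ab1 and 0.0845 and 0.247 for Dnajb1.

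Cluster 9 (776 cells), led by Nrg1, Olr1 and Plac8, had 1 member called, where 14.5% of all genes were called, 10.2% higher and 4.28% lower. Hspa8 had 2886, 2577 and 1975 CPM, against 2073 CPM in the other classes (0.33 ± 0.12, edgeR adjusted p = 0.0467), and without mouse 2 (0.295) or mouse 3 (0.0918) the call was lost. Hspa1a had 318, 307 and 478 CPM, against 442 CPM (0.53 ± 0.30, adjusted p = 0.281). The 442 CPM is an arithmetic mean, while the fit averages the scaled classes on the log scale, so their directions can differ. Without mouse 1, Hspa1a (0.000178) and Hspa1b (0.00385) were called higher. Its immediate-early genes were high, with 9 of 19 called higher and 1 lower, led by Ier3 (1.66) and Klf4 (1.204).

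**Figure D5:**
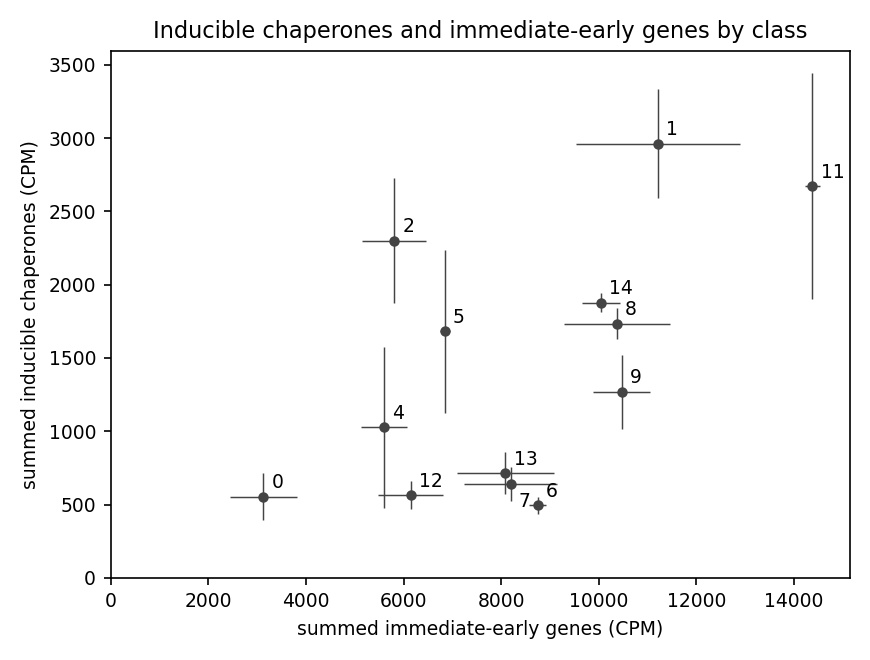
Summed inducible chaperones against summed levels of 19 immediate-early genes (both in CPM) in 13 macrophage classes, labelled by cluster number. Points are means and bars SDs over 3 mice; clusters 1 and 11 are high in both, cluster 2 has 2299 CPM of inducible chaperones at 5801 CPM of immediate-early genes, and cluster 6 has 495 CPM at 8751 CPM.

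Set side by side by their calls, inducible chaperones and immediate-early genes were both higher in clusters 1, 11 and 14. In cluster 0 both were lower. Most of their calls parted in clusters 2 and 6. In cluster 4, 10 of 19 immediate-early genes were called lower. There Dnajb1 was the only inducible member called lower, and its call was lost without mouse 2 or mouse 3. In the remaining classes calls were mixed, of 1 kind only or rested on 1 inducible member. In cluster 14, 7 of 19 immediate-early genes were called higher and 0 lower, where 11.7% of all genes were called higher. Cluster 8 had 5 of 19 called higher and 0 lower, where 0.621% of all genes were called higher, and no inducible member called. Clusters 2 and 12 had similar immediate-early sums, 5801 ± 651 and 6145 ± 660 CPM, with inducible chaperones at 2299 ± 425 and 564 ± 95.6 CPM. Jun went the way of Hspa1a in clusters 1, 2, 11, 14, 0, 6 and 12, where both were called. In cluster 7 Jun was higher by 1.83 and in cluster 4 lower (-1.02), and Hspa1a was called in neither.

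Correlations over the 39 sums of class and mouse, after each mouse's mean was subtracted, overlapped between pairs of a kind and pairs across kinds. Pearson's r ran between 0.52 (Dnajb1 and Hsph1) and 0.94 over inducible pairs, between 0.38 (Hspa8 and Hspe1) and 0.86 over constitutive pairs, and between 0.075 (Hsph1 and Hspe1) and 0.57 over pairs of 1 inducible and 1 constitutive member. For Hspa1a it was 0.94 with Hspa1b, 0.79 with Hsp90aa1, 0.74 with Hsph1 and 0.67 with Dnajb1. With the constitutive members Hspa1a had 0.08 for Hspa8, 0.24 for Hsp90ab1, 0.18 for Hspd1 and 0.29 for Hspe1. The constitutive pairs Hsp90ab1 and Hspe1 (0.86) and Hsp90ab1 and Hspd1 (0.82) were close. Across kinds, Hsp90aa1 had 0.57 with Hsp90ab1 and 0.52 with Hspd1, and Dnajb1 had 0.51 with Hspa8. These points share libraries, classes and depth, and the values are descriptions.

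The genes most like the HSP70 pair over the same 39 sums, among 4922 genes of at least 20 CPM, were Maf (0.75), Nfic (0.75), Zfp36l2 (0.74), Fos (0.72), Txnip (0.72), Kat6a (0.72), Stk17b (0.71), Cpt1a (0.71), Hes1 (0.71) and Atp6v1b2 (0.71). Of these, Maf, Nfic, Zfp36l2, Txnip and Hes1 had been used to form the clusters. Those most like the mean of the 4 constitutive members were Eif3c (0.92), Cfl1 (0.92), Cct5 (0.91), Cct4 (0.91), Psmb5 (0.91), Ube2l3 (0.91), Actb (0.91), Psmb2 (0.91), Dpy30 (0.90) and Cct8 (0.90), which include 3 subunits of the TRiC chaperonin and 2 of the proteasome.

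The mice differed in the balance of the HSP70 pair. UMIs of Hspa1a were 1.23, 1.51 and 2.48 times those of Hspa1b in mice 1, 2 and 3. Mouse 3 had the highest ratio in 10 of the 13 classes, with a median of 2.58, compared with 1.33 in mouse 1 and 1.80 in mouse 2. Hspa8 was lowest in mouse 3 in 12 classes and highest in mouse 1 in 10, while Hsp90aa1 was lowest in mouse 1 in 10. With 1 library a mouse, the animal and its library cannot be told apart, and no test between mice was made.

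In clusters 1, 2, 6, 8, 12 and 14 the inducible sum was lower in cells with more mitochondrial UMIs in all 3 mice, and in the remaining classes the mice differed in direction. In cluster 1, cells with 5% mitochondrial UMIs or more had 2076, 2534 and 2384 CPM of the inducible sum, against 3067, 3751 and 3298 CPM in cells under 5%. In cluster 2 the same sums were 1537, 998 and 1683 CPM, against 3101, 2799 and 3457 CPM. Cluster 12 was low on both sides, at 465, 579 and 450 CPM in cells from 5% on, against 495, 715 and 646 CPM in cells under 5%. The part of the mitochondrial share in the differences between classes was not tested.

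Macrophage clusters with 9 cells in mouse 1 were not tested. Cluster 3, cycling-like with replication genes such as Mcm6 and Ung, had 5984, 5211 and 4992 CPM of the constitutive sum, the largest mean of all clusters (5396 ± 521), and 652, 1409 and 2152 CPM of the inducible sum. The interferon-like cluster 10 had 743, 2511 and 1145 CPM of the inducible sum, and a single cell of mouse 2 held 25.6% of that mouse's inducible UMIs in the cluster. Cluster 16, led by Retnla, Lyz1 and Ear2, had 1341, 1231 and 1035 CPM of the inducible sum. A single cell of mouse 1 held 73.2% of that mouse's inducible UMIs in cluster 16. Cluster 15, the 62 epithelium-like tumour cells, 4 of them from mouse 1, had an inducible sum of 348.5, 785 and 1002 CPM, beside a constitutive sum of 3275, 4579 and 3956 CPM.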

How the data were processed

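The 3 libraries, 1 per mouse, were prepared with 10x Genomics 3' v3 chemistry per the labels. Per the submitters' processing notes the authors used Cell Ranger 3.0.2 with build mm10, and the deposited matrices hold raw UMI counts for each gene and barcode; the annotation release is not given in the sources used here. Scanpy 1.11.5 clustered the cells (2000 variable genes chosen within mice, 30 principal components, 15 neighbours, Leiden resolution 1) without the chaperones, the genes of any list, ribosomal protein genes and mitochondrial genes. A cluster was named from 20 lists of markers where at least 3 genes and at least 40% of a list were raised. Raised genes were found in 10% of cells and higher by 0.5 on the log2 scale. No name was given where another list held as many of the 10 leading genes. The same held for a low-depth cluster with no gene of the list among its leading genes. Cluster 13 was such a case, with 5 of 12 inflammatory markers raised. Clusters without a name kept their number. The genes that lead a cluster describe it and are no finding. Scrublet called 2, 9 and 0 doublets, too few for a working caller, so none were removed. Removing 4, 36 and 390 cells by score was an alternative.

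Counts were summed per class and mouse over 13 classes with at least 10 cells in each mouse. They were fitted with edgeR 4.0.16 in R 4.3.3 (TMM, filterByExpr, robust quasi-likelihood, both sides tested) on terms for the class and the animal. The animal was a block because every class was drawn from the same 3 mice. Each contrast set a class against the average of the others, with equal weights and on the log scale. The mean CPM of the other classes is an arithmetic mean, so it can differ from the fold change in size or direction. Of 9465 fitted genes, the 8215 not used to cluster entered the Benjamini-Hochberg adjustment. All 9 chaperones passed the filter on low counts. SEs were derived from the fold change and the root of its F statistic. CPM are counts scaled to 1000000 UMIs of a class or mouse, and SDs are over mice.

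All 9 members are named whatever their result. From the lists, called genes with the same sign in 3 of 3 mice were named, up to the 6 largest higher and 4 largest lower per class. The members, lists and tests were chosen with earlier results of these data known. The alternatives changed the limits on cells, doublet removal, the clustering, the scaling, the low-count filter, the block, the number of cells, the contrast, the adjustment and the mice, and used DESeq2 1.42.0. The fit was tested on simulated counts in which 200 genes of 1 class were changed. Changes of 1 (log2) were recovered for 89.5% of these genes in cluster 12 and 78% in cluster 11. The share was 80% in cluster 6 and 21% in cluster 13. For changes of 2, 60% were recovered in cluster 13, so genes not called there may still differ. False calls reached 8.13% of calls (cluster 12, changes of 2), above the limit of 5%. Counting error for the UMIs in the richest cells is that of a Poisson count with the observed mean. Promoters came from RefSeq's table for GRCm38.p6, and gene positions from GENCODE's annotation of GRCm38, matched on IDs.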

Additional observations from a re-analysis of the deposited data

Results flagged for a closer look

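Barcodes above the mitochondrial limit, which the comparisons did not use, carried chaperone transcripts at a mean inducible level of 1662 CPM (SD 249, n = 3 mice), and were kept for a closer look because this signal lies outside the measured cells. The 387, 298 and 307 barcodes of mice 1, 2 and 3 had 1491, 1948 and 1548 CPM of the inducible sum, against 1597, 1579 and 1655 CPM in the kept cells of the same mice. Their constitutive sum was 1867, 2202 and 2079 CPM, against 4258, 4364 and 3775 CPM in kept cells. Inducible members therefore made up 44.4, 46.9 and 42.7% of chaperone UMIs in these barcodes, against 27.3, 26.6 and 30.5% in kept cells, and the ranges over mice did not overlap. The median of these barcodes was 3056, 2076.5 and 1508 UMIs. Part of the lower constitutive share of all UMIs goes with the larger mitochondrial share by construction, and what else sets it was not tested.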

How the results depend on the processing

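The summed inducible and constitutive levels moved by less than 1 SD over mice under every cell filter, with doublets removed, in macrophage classes alone and as means over cells, and ranged from 1588 to 1626 CPM and from 4016 to 4311 CPM with each mouse left out. With all mice 31 pairs of chaperone and class were called higher, 17 lower, and 21714 pairs of gene and class were called. Leaving out each mouse in turn gave 15 to 35 higher, 8 to 23 lower and 9751 to 20902 in all, and 18 of the 48 called pairs stayed called in all 3 of these fits. Without the replicate block the counts were 18 higher and 14 lower, with 11284 in all, and 30 of the 48 pairs stayed called. Equal numbers of cells gave 14, 5 and 5203. Resolution 0.5 gave 15, 11 and 12380 over the 6 classes that could be matched, with a least overlap chosen after seeing the data. Against the sum of all other macrophage cells 20 were higher and 36 lower. Without the low-count filter 29 were lower, and with at most 8% mitochondrial UMIs 10. DESeq2's Wald test called 28 higher and 21 lower, and its size factors moved the median of all genes of a class by up to 0.36 (log2) and gave 28 and 18.

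Of pairs called with all mice or under the alternative, the following changed direction; sign changes of pairs called in neither are not listed. Hspa1b in cluster 4 was 0.12 with all mice and between -1.54 (without replicate 1) and 0.729 (without replicate 3). Hspa8 in cluster 5 was -0.16 against the sum of other cells and -0.21 without the low-depth classes. Hspe1 in cluster 2 was -0.0267 at resolution 0.5 and -0.0460 with the lists allowed into clustering, in cluster 4 -0.0682 with equal cell numbers and in cluster 5 -0.0015 at resolution 0.5. The causes were not tested. Under every alternative that gave a value, Hspa1a stayed called in clusters 2, 11 and 12 and Hspa1b in clusters 1 and 2. The same held for Dnajb1 and Hsph1 in cluster 1 and for Hspe1 in clusters 1 and 13. With the lists allowed into clustering, 6 of the 9 chaperones shaped the clusters, so no count is given. Clusters 0 and 13 had medians of 2050 and 1821 UMIs and mouse 1 gave 663 cells, so scarce genes were read there from few UMIs.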
